A study of Mus musculus with 9 samples.

Results

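Tissue around a photothrombotic infarct was compared with the corresponding tissue of sham-operated mice at day 28. The comparison took the 3 libraries titled PT and the 3 titled sham, 6 of the 9 libraries of the series, and covered 16740 tested genes of 55401 in the deposited table. Photothrombosis (PT) is a stroke model in which a photosensitive dye is given and light on the skull closes the cortical vessels below. All mice were wild type, and both groups received ultrapure water by gavage, begun 24 h after surgery and continued for 28 days. The other 3 libraries, from PT mice given the drug Pushen, entered the choice of tested genes, the scaling and the estimate of the spread between libraries. They did not enter the difference between PT and sham itself. The labels do not say which region stood for peri-infarct tissue in sham mice. Neither do they say if each library stands for its own animal or for a pool. The p-values accordingly rest on the variation among libraries, part or all of which may be technical.

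An infarct kills neurons and draws in microglia, monocytes and later lymphocytes, which clear dead cells and myelin debris. Astrocytes around the core enlarge their filaments and wall it off, while fibroblasts of vessels and meninges lay down a collagen scar inside. Weeks after the occlusion the border holds scar, phagocytes loaded with lipid and surviving neurons beside one another, and bulk RNA is read from all of them at once.

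Deposited counts summed to between 64482908 and 75100133 per library. The labels call the tissue brain but describe the removal of retinas for RNA extraction. Cortical markers were high in all 6 libraries: Slc17a7, the vesicular glutamate transporter of excitatory cortical neurons, lay between 171 and 313 FPKM (fragments scaled by gene length and sequencing depth). The photoreceptor markers Sag, Gnat1, Pde6b, Crx, Nrl and Rcvrn stayed at or below 0.27 FPKM in every library. PT library 1 stood apart in genes of neighbouring brain structures. The dopamine receptor Drd2, a striatal marker, was at 0.24, 0.24 and 0.43 FPKM in sham libraries 1, 2 and 3 and at 20.6, 2.96 and 0.46 FPKM in PT libraries 1, 2 and 3. Ttr, the transthyretin of choroid plexus, was at 2.09, 11.3 and 16.6 FPKM in sham and 528, 17.9 and 41.4 FPKM in PT. Both genes were thus far higher in PT library 1 than in any other library.

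PT and sham differed in a large share of the transcriptome. Of the 16740 tested genes 5176 (30.9%) passed edgeR's quasi-likelihood test at a Benjamini-Hochberg adjusted p under 0.05. They divided into 3202 genes that were higher in PT (19.1%) and 1974 that were lower (11.8%). The libraries of the groups did not overlap in FPKM for 8020 tested genes (47.9%). Rises were larger than falls. The median log2 fold change was 1.04 among the genes that rose and -0.47 among those that fell, with median standard errors of 0.20 and 0.12. A change of at least 2-fold was found in 1649 rising and 90 falling genes, of at least 8-fold in 390 and 2, and of at least 16-fold in 226 and 1. Over all tested genes the median was -0.00. Genes called higher took 7.53%, 8.28% and 8.46% of all FPKM in the sham libraries and 17.5%, 17.5% and 14.7% in the PT libraries. Genes called lower took 15.6%, 16.6% and 15.4% in sham and 9.69%, 12.3% and 12.9% in PT. In both directions PT library 3 was the PT library nearest to sham. Without sham library 1, 2 or 3 the falls numbered 782, 1000 and 1247, and without PT library 1 or 2 they numbered 1170 and 1299. The total was 3198 without sham library 1 and 3365 without sham library 2. In bulk tissue a smaller number of cells of a type and less RNA per cell cannot be told apart.

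**Figure D1:**
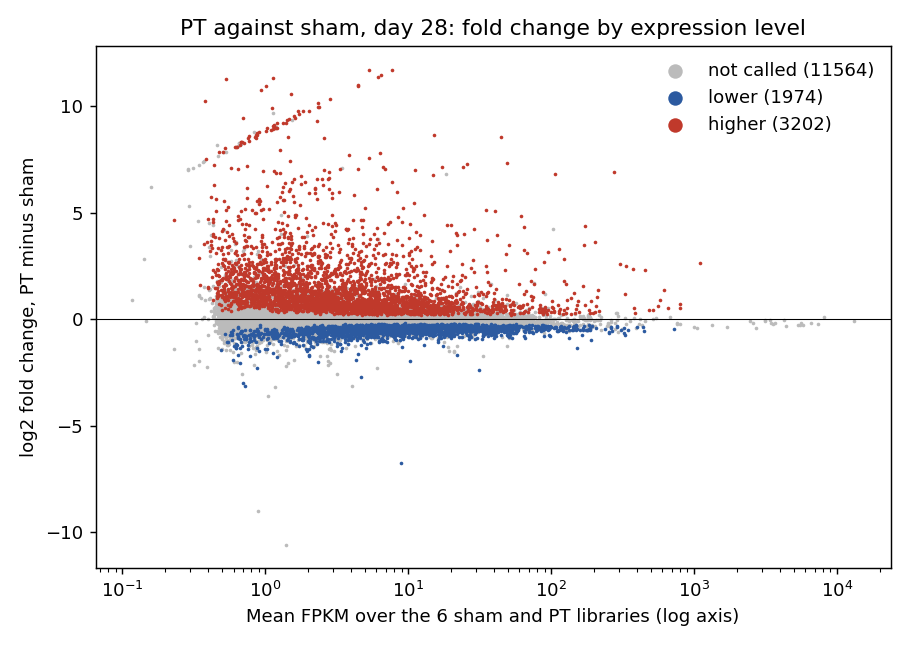
Each point is a tested gene, placed by its mean FPKM over the 6 sham and PT libraries (log axis) and its fitted log2 fold change, PT minus sham. The 3202 genes called higher (red) reach much larger fold changes than the 1974 called lower (blue), and the 80 tested genes with no sham count, whose fitted values depend on the prior count, form the oblique line at the upper left.

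The genes that gained the most transcript are known from phagocytes and glia. Apoe, the main lipid carrier of the brain, stood at 180.0, 342 and 349 FPKM in the sham libraries and at 2284, 2165 and 1258 FPKM in the PT libraries, a mean gain of 1612 FPKM. The groups were far apart, although sham library 1 and PT library 3 were each the lowest of their group. The log2 fold change, given here and below with its standard error, was 2.66 ± 0.34 (edgeR adjusted p = 0.000859). Lyz2, the lysozyme of macrophages, was at 3.33, 4.18 and 5.69 FPKM in sham and 535, 606 and 499 FPKM in PT. It was thus a minor transcript in sham and among the most abundant in PT, 119-fold higher (edgeR adjusted p = 0.000461). The other large gains were Ptgds, the prostaglandin D2 synthase of meninges and glia (1.36 ± 0.13), Ftl1, the light chain of the iron store ferritin (2.38 ± 0.30), the lysosomal protease Ctsd (2.48 ± 0.29), B2m, the constant chain of MHC class I (2.62 ± 0.25), Psap, the precursor of lysosomal sphingolipid activators (0.73 ± 0.12), and the protease inhibitor Cst3 (0.90 ± 0.18).

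The largest losses of transcript were neuronal and modest in fold. Calm2, one of the calmodulin genes, fell from 857, 784 and 822 FPKM in sham to 547, 651 and 671 FPKM in PT, with a log2 fold change of -0.45 ± 0.11 (edgeR adjusted p = 0.0161). Snap25, a membrane fusion protein of the synapse, was at 433, 412 and 379 FPKM in sham and 202, 269.8 and 286 FPKM in PT (-0.75 ± 0.15, edgeR adjusted p = 0.00721). For both genes every PT library lay below every sham library, which was a condition of the choice. The sodium pump subunit Atp1b1 (-0.55 ± 0.13), the calcium sensor Vsnl1 (-0.65 ± 0.18), the kinesin cargo adaptor Clstn1 (-0.52 ± 0.12), the tubulin regulator Stmn3 (-0.62 ± 0.15) and the neuronal membrane protein Gpm6a (-0.51 ± 0.11) were also among the 8 largest. Without sham library 1 the edgeR adjusted p was 0.0602 for Calm2 and 0.0518 for Atp1b1. It was 0.0664 to 0.0691 for Vsnl1 without sham library 1 or 2 and 0.0502 to 0.0615 for Stmn3 without sham library 1 or PT library 1.

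**Figure D2:**
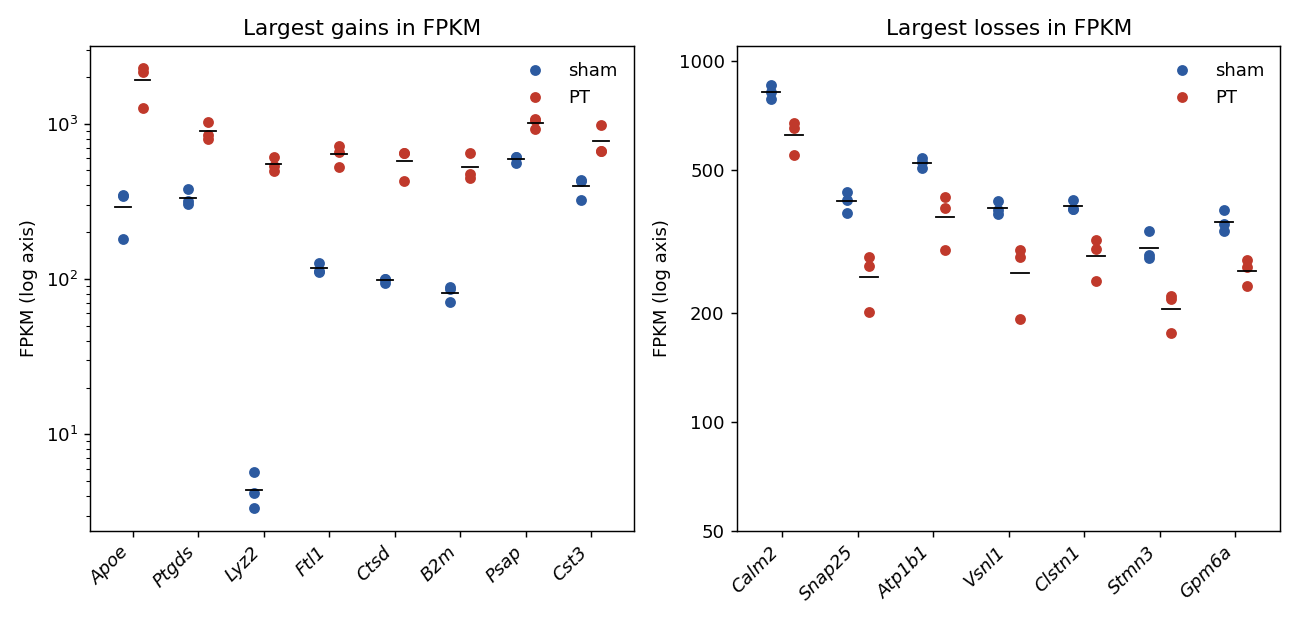
Points are the FPKM of single libraries (log axis) for the 8 protein-coding genes with the largest mean gain (left) and 7 of the 8 with the largest mean loss (right), sham in blue and PT in red, and black lines are group means of 3 libraries. The PT points lie above all sham points on the left and below all sham points on the right, a condition of the choice, and Lyz2 spans the widest gap.

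The falls with the smallest p-values were found in genes of various roles. Ncam2, an adhesion molecule of axons, was at 5.31, 4.88 and 4.48 FPKM in sham and 1.79, 2.25 and 2.06 FPKM in PT (-1.32 ± 0.16, edgeR adjusted p = 0.000751). Sema3e, a secreted guidance cue made by deep-layer cortical neurons, fell by a similar amount (-1.03 ± 0.12), as did the progesterone receptor Pgr (-1.11 ± 0.14) and St6gal2, a sialyltransferase (-1.06 ± 0.13). Klhl29 (-0.59 ± 0.07) and Sepsecs, which makes selenocysteinyl-tRNA (-0.85 ± 0.11), were the others of this set. Among called protein-coding genes with non-overlapping libraries and a mean of at least 1 FPKM in sham, the largest fall was that of Rpe65. This retinoid isomerase gene was at only 1.20, 0.96 and 1.07 FPKM in sham and 0.34, 0.06 and 0.39 FPKM in PT (-2.07 ± 0.53). It was followed by Btbd6 (-1.97 ± 0.54), Fam126b (-1.89 ± 0.39), Pnma2 (-1.71 ± 0.34), Napb (-1.65 ± 0.51) and the protocadherin Pcdh7 (-1.62 ± 0.23). Rpe65 lost its call without sham library 1 (edgeR adjusted p = 0.0573), Btbd6 without any 1 library other than PT library 2 (0.0525 to 0.0802) and Napb without any 1 other than sham library 2 or 3 (0.052 to 0.119). Napb was uneven in sham, at 65.8, 17.6 and 15.97 FPKM.

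The rise was described further by lists of genes for cell types and processes. A gene seen only in PT could be tested on its PT level alone, so counts among the tested genes of a list describe those genes and not all members. Over all tested genes 19.1% rose and 11.8% fell, and the lists are set against these shares.

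Receptors by which phagocytes sense debris and pathogens rose. Of 18 Toll-like receptors and adaptors 11 were tested and 9 rose (median log2 fold change 1.39). Tlr2, which binds bacterial lipopeptides, was at 0.17, 0.21 and 0.25 FPKM in sham and 4.84, 4.28 and 3 FPKM in PT (4.18 ± 0.34, edgeR adjusted p = 0.000446). Its coreceptor Tlr1 (3.68 ± 0.36), the lipopolysaccharide coreceptor Cd14 (2.999 ± 0.33), the ribosomal RNA sensor Tlr13 (2.82 ± 0.43) and the shared adaptor Myd88 (1.71 ± 0.17) rose as well. Of 28 C-type lectins and immunoglobulin-like receptors 21 were tested and 20 rose, the median reaching 4.15. Clec7a, the beta-glucan receptor dectin-1, was at 0.13, 0.18 and 0.18 FPKM in sham and 23.6, 25.9 and 17.1 FPKM in PT. It was therefore nearly absent from sham and rose 129-fold (edgeR adjusted p = 0.000446). The lipid sensor Trem2 (3.03 ± 0.30) rose together with its signalling partner Tyrobp, which went from 10.4, 9.56 and 9.73 FPKM to 104, 92.7 and 65.8 FPKM. Sirpa, the receptor for the "don't eat me" signal CD47, was the tested member that did not pass (0.14 ± 0.40). All 15 tested genes of 17 listed for Fc receptors and their partners rose (median 2.66). They included the inhibitory receptor Fcgr2b (4.22 ± 0.38), the activating receptor Fcgr1 (3.52 ± 0.38) and the signalling chain of Fcgr1, Fcer1g (3.49 ± 0.34). The antibody recycling receptor Fcgrt (1.68 ± 0.17) and the kinase Syk (2.68 ± 0.29) were others.

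Receptors for extracellular nucleotides, which leak from injured cells, mostly rose. Of 22 listed, 14 were tested and 11 rose (median 1.22). The UDP receptor P2ry6 (2.80 ± 0.28), which triggers microglial phagocytosis, the ATP-gated channels P2rx7 (1.53 ± 0.21) and P2rx4 (1.25 ± 0.25) and the ATP-degrading enzymes Entpd1 (1.28 ± 0.19) and Entpd2 (0.97 ± 0.15) were among them. P2ry12, the ADP receptor of resting microglia, was at 9.75, 5.70 and 8.46 FPKM in sham and 6.10, 9.91 and 7.99 FPKM in PT. The groups overlapped and no change was called (-0.06 ± 0.25, edgeR adjusted p = 0.891). Other genes of resting microglia did rise: of 19 tested 14 were higher (median 0.87), among them Tmem119 (1.32 ± 0.15), the growth factor receptor Csf1r (1.80 ± 0.21) and the transcription factor Sall1 (0.76 ± 0.11). Cx3cr1, the fractalkine receptor, could not be read clearly, since its sham libraries were at 7.14, 0.86 and 1.49 FPKM (-0.33 ± 0.68, not called). Adora2a, an adenosine receptor listed with the nucleotide receptors, passed but is a striatal gene and stood at 27.7, 3.81 and 1.05 FPKM in PT. Its call was lost without any 1 sham library (edgeR adjusted p = 0.0515 to 0.0749).

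Transcription factors of the myeloid lineage rose in 19 of 23 tested cases (median 1.48). Spi1, which encodes PU.1, the factor that specifies macrophages and microglia, was at 0.89, 0.67 and 0.88 FPKM in sham and 8.77, 7.71 and 5.65 FPKM in PT (3.11 ± 0.30, edgeR adjusted p = 0.000461). Every PT library thus held several times the sham level. Irf8 (2.94 ± 0.32), Irf5 (2.54 ± 0.25), Runx1 (3.37 ± 0.35), Cebpa (2.07 ± 0.21) and Cebpd (3.02 ± 0.34) rose beside it, and Stat3 (1.16 ± 0.17), which relays interleukin signals, rose by less. Kinases and inhibitors downstream of cytokine receptors mostly did not pass, with 5 of 16 higher and 2 lower (median 0.20), or 1 lower without sham library 1, sham library 2, PT library 1 or PT library 2. The 5 were the feedback inhibitors Socs3 (2.70 ± 0.39) and Socs1 (1.41 ± 0.31), the leukocyte phosphatases Ptprc (3.39 ± 0.31) and Ptpn6 (2.87 ± 0.26), and the lymphoid kinase Jak3 (1.36 ± 0.19).

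Chemokines and cytokine receptors rose beside them. Of 27 CC chemokines and receptors 17 were tested and 11 rose, and of 19 CXC genes 10 were tested and 7 rose (medians 3.05 and 2.51). Ccl8, a monocyte attractant, had no count in sham and stood at 13.4, 8.40 and 10.2 FPKM in PT, at least 143-fold higher when each sham library is set to a floor of 3 counts. Ccl6 was at 0.32, 0.46 and 0.60 FPKM in sham and 25.4, 15.3 and 13.5 FPKM in PT (5.21 ± 0.58), and the monocyte attractant Ccl2 at 0.04, 0.12 and 0.12 FPKM and 4.41, 3.38 and 1.72 FPKM (4.92 ± 0.56). In each case the lowest PT library was many times the highest sham library. Cxcl10 (5.19 ± 0.35) and Cxcl16 (4.14 ± 0.38), which attract T cells, and Cxcr4 (4.68 ± 0.62), a receptor that guides leukocytes, also rose. Neuronal Cx3cl1, the ligand of Cx3cr1, was not called (-0.35 ± 0.13), although it was without PT library 3 (edgeR adjusted p = 0.0205). Of 34 interleukin and cytokine receptors 26 were tested and 21 rose (median 1.80), including the oncostatin M receptor Osmr (2.94 ± 0.31), the common gamma chain Il2rg (3.43 ± 0.30) and the interleukin 10 receptor Il10ra (2.58 ± 0.31). Of 38 TNF family genes 18 were tested and 13 rose (median 1.23), with both TNF receptors, Tnfrsf1a (2.50 ± 0.29) and Tnfrsf1b (3.22 ± 0.36), and the death receptor Fas (2.02 ± 0.32) among them. Leukocyte integrins and their endothelial ligands rose in 14 of 18 tested cases (median 1.43). The hyaluronan receptor Cd44 (4.34 ± 0.42), the leukocyte chain Itgb2 (3.72 ± 0.40) and the adhesion ligands Icam1 (3.31 ± 0.42) and Vcam1 (1.34 ± 0.17) were higher, whereas Itgav, a subunit that helps to activate TGF-beta, was not called, with 1.62, 7.59 and 8.41 FPKM in PT against 8.71, 8.43 and 8.90 FPKM in sham. For Itgav PT library 1 alone stood below the other 5 libraries.

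Lysosomes and the handling of engulfed lipid formed a further large block. Of 16 tested cathepsins and cystatins 14 rose and 1 fell (median 1.92), with no fall when a library other than PT library 1 was left out. Ctss, the cathepsin that trims the invariant chain in antigen-presenting cells, was at 28.7, 27.0 and 31.0 FPKM in sham and 450.3, 380.2 and 296 FPKM in PT (3.64 ± 0.35, edgeR adjusted p = 0.000461), with a wide gap between the groups. Ctsz (2.71 ± 0.29), Ctsb (1.37 ± 0.20) and Ctsl (2.04 ± 0.28) rose too. Of 33 lysosomal membrane and acid hydrolase genes 24 rose and none fell (median 0.78). Lyz2 was among them, as was the endosomal protein Cd68, at 4.92, 4.73 and 4.81 FPKM in sham and 90.5, 86.5 and 60.5 FPKM in PT. Atp6v0d2, a proton pump subunit of macrophages and osteoclasts, had 34 counts in all of sham and 8337 in all of PT. The general lysosomal protein Lamp1 (0.89 ± 0.14) rose by much less, and the acid sphingomyelinase gene Smpd1 was not called (-0.15 ± 0.06). Receptors and bridging proteins for dead cells rose in 15 of 19 tested cases (median 0.57). Scavenger receptors led them, with Cd36 (5.92 ± 0.54), Msr1 (5.13 ± 0.52) and the mannose receptor Mrc1 (2.84 ± 0.23), while the phosphatidylserine system of Axl (1.43 ± 0.19), Mertk (0.57 ± 0.11) and their ligand Gas6 (0.47 ± 0.11) rose by less.

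Genes of lipid storage and export rose while those of cholesterol synthesis fell. Of 31 tested genes for lipid droplets, cholesterol efflux and fatty acid binding 25 rose and 3 fell (median 1.49). Plin2, the coat protein of lipid droplets, was at 0.77, 0.89 and 1.10 FPKM in sham and 9.60, 14.5 and 8.75 FPKM in PT (3.50 ± 0.42, edgeR adjusted p = 0.000697). The cholesterol exporter Abca1 (2.36 ± 0.30), the lipid carriers Apod (2.81 ± 0.26) and Pltp (2.32 ± 0.33), the fatty acid binding protein Fabp4 (6.04 ± 0.72) and Ch25h, which makes 25-hydroxycholesterol (4.12 ± 0.46), rose with it. In contrast, 11 of 25 cholesterol synthesis genes fell and 1 rose (median -0.35), with 0 rises when any 1 library was left out. Hmgcs1, an early enzyme of the pathway, was at 46.0, 37.5 and 41.2 FPKM in sham and 22.4, 25.3 and 27.7 FPKM in PT (-0.79 ± 0.13, edgeR adjusted p = 0.00275). Msmo1 (-0.65 ± 0.14), Sqle (-0.53 ± 0.10) and Fdft1 (-0.51 ± 0.12) fell by comparable amounts. The falls numbered 6 without sham library 1 and 7 without PT library 2, and the 3 falls among the storage genes numbered 0 or 1 without any 1 library other than PT library 3.

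Iron storage genes rose, and uptake genes moved in different directions. Of 29 tested genes of iron and heme handling 15 rose and 2 fell (median 0.75), with 1 fall without sham library 2 or PT library 1. Hmox1, which frees iron from heme, was at 1.86, 2.14 and 1.91 FPKM in sham and 20.7, 20.1 and 15.8 FPKM in PT (3.20 ± 0.40, edgeR adjusted p = 0.000825). Both ferritin chains, Ftl1 and Fth1 (1.17 ± 0.17), the iron-siderophore carrier Lcn2 (6.80 ± 0.53), the metalloreductases Steap3 (2.43 ± 0.25) and Steap4 (6.12 ± 0.61), the phagosomal exporter Slc11a1 (3.82 ± 0.42) and ceruloplasmin, Cp (2.16 ± 0.28), were higher. Tfrc, the transferrin receptor through which neurons take up iron, fell from 23.2, 20.7 and 19.7 FPKM to 10.5, 9.62 and 13.5 FPKM (-0.97 ± 0.16, edgeR adjusted p = 0.00273). Its groups did not overlap. The importers Slc39a14 (0.89 ± 0.17) and Slc39a8 (0.65 ± 0.15) and the carrier transferrin, Trf (1.35 ± 0.27), rose, and the importer Slc11a2 was not called (0.01 ± 0.07). The call of Slc39a8 was lost without sham library 2 or 3 (edgeR adjusted p = 0.0501 to 0.0508). Transcripts of red cells, a measure of blood left in the tissue, were called in 0 of 6 tested cases, with Hba-a1 at 53.5, 42.1 and 30.7 FPKM in sham and 12.2, 35.7 and 55.7 FPKM in PT.

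Genes of antigen presentation held most of the smallest p-values among abundant risers. Of 11 MHC class II genes 7 were tested and all 7 rose (median 4.81). Cd74, the invariant chain, was at 1.47, 1.72 and 2.29 FPKM in sham and 77.6, 63.7 and 63.6 FPKM in PT, 35.7-fold higher (edgeR adjusted p = 9.16e-05). The PT libraries were close to one another for this gene. The class II chain H2-Eb1 was at 0.39, 0.60 and 0.67 FPKM in sham and 17.6, 18.9 and 12.9 FPKM in PT (4.81 ± 0.28, edgeR adjusted p = 0.000245). Of 23 genes of MHC class I and peptide loading 21 rose (median 1.53), including all 9 listed genes for class I heavy chains and B2m. H2-D1 was at 16.1, 18.7 and 20.0 FPKM in sham and 196, 173 and 146 FPKM in PT (3.17 ± 0.27). The class I transactivator Nlrc5 (3.41 ± 0.23), the immunoproteasome subunits Psmb8 (2.94 ± 0.24) and Psmb9 (2.84 ± 0.24) and the peptide transporters Tap1 (2.67 ± 0.25) and Tap2 (1.63 ± 0.16) rose with it. H2-Q6 (4.03 ± 0.20) and H2-Q7 (3.95 ± 0.31) share nearly the same sequence, which leaves the value of each uncertain. The third immunoproteasome subunit, Psmb10, was not called (0.12 ± 0.11). Outside these families Cxcl10 and Ptgdr, a receptor for the prostaglandin D2 that Ptgds makes (2.91 ± 0.18), had p-values as small. Of 36 complement genes 25 were tested and 20 rose (median 2.18). The C1q chain C1qa was at 24.2, 25.5 and 29.4 FPKM in sham and 406, 312 and 222 FPKM in PT, and the inhibitor Serping1 (4.06 ± 0.40), the fourth component C4b (5.11 ± 0.37) and the receptors C3ar1 (3.58 ± 0.37) and C5ar1 (3.07 ± 0.40) rose too.

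Interferon-induced genes rose almost without exception. All 17 tested of 19 listed GTPases that attack the vacuoles of pathogens rose (median 2.24), as did 31 of 33 tested antiviral genes (median 2.41). Gbp2 was at 0.70, 0.51 and 0.75 FPKM in sham and 8.22, 8.18 and 6.04 FPKM in PT (3.46 ± 0.33, edgeR adjusted p = 0.000461), and Tgtp1 at 0.32, 0.28 and 0.35 FPKM and 2.87, 1.58 and 2.55 FPKM (2.82 ± 0.28). Tgtp1 has a near-identical neighbour, Tgtp2, so its value is uncertain. Ifitm3, which blocks viral entry at endosomes, was at 8.74, 7.07 and 8.22 FPKM in sham and 138, 64.0 and 79.0 FPKM in PT (3.49 ± 0.31). Ifi27l2a, an interferon-induced mitochondrial protein, showed the PT libraries to be uneven, at 45.4, 9.54 and 20.1 FPKM against 0.91, 0.64 and 0.76 FPKM in sham. PT library 2 was the lowest for both lists, with a mean log2 level above sham of 2.16 for the GTPases and 1.88 for the antiviral genes, against 3.04 and 2.84 in PT library 1 and 2.59 and 2.61 in PT library 3. Ifit2 was not called, at 0.32, 4.44 and 6.26 FPKM in PT against 3.59, 3.46 and 3.21 FPKM in sham, so that PT library 1 was low while the other PT libraries were above sham. The interferon-stimulated response element (ISRE), the site of the IRF factors, was searched in promoter windows from RefSeq (GRCm38.p6, 250 bases before to 50 after the start) as the letters GAAA, any 2 bases and GAAA again, on both strands. It was found in 3.44% of all windows, in 2.96% of windows of tested genes, 4.73% of those of genes called higher, 2.63% of those called lower and 10.9% of those called higher at least 4-fold. The GC content of the windows had medians of 60.7% for tested genes and 53.3% for the genes raised at least 4-fold. Of 10 windows of the GTPases 9 held the letters (90%), many of these genes being copies of one another, and so did 11 of 26 windows of the antiviral genes (42.3%) and 5 of 22 of the class I list (22.7%). The windows of 4 risers show the element at different distances from the start, with its letters in capitals, 5′ to 3′ on the gene's strand. In Gbp2 (chr3:142620413-142620712, + strand) it begins 59 bases upstream of the start, in Tgtp1 (chr11:48992197-48992496, - strand) 77 bases and in B2m (chr2:122147437-122147736, + strand) 139 bases upstream. In Ifitm3 (chr7:141010695-141010994, - strand) it begins 2 bases and again 19 bases downstream. A match describes the letters only and not the binding of a factor.
Gbp2: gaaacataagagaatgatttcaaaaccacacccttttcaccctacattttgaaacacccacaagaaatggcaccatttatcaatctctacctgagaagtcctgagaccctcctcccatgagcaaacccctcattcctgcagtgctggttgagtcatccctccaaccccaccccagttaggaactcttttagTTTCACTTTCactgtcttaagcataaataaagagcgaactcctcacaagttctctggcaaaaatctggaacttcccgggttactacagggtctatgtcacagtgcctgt
Tgtp1: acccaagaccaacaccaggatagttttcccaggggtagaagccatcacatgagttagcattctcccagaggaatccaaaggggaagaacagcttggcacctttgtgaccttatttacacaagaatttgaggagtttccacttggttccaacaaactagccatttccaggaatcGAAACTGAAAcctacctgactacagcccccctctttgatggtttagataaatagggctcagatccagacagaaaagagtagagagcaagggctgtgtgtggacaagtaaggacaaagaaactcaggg
B2m: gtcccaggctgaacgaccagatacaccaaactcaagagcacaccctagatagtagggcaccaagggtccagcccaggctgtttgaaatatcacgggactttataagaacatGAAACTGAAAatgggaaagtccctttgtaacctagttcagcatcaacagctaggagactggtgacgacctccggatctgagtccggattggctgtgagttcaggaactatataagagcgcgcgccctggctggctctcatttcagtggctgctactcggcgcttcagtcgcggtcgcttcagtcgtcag
Ifitm3: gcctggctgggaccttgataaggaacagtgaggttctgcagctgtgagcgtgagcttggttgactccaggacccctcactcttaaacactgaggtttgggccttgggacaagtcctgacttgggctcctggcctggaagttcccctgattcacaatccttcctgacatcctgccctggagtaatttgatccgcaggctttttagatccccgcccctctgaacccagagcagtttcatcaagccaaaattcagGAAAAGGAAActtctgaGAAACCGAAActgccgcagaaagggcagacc

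Lymphocyte genes were higher in PT. Of 47 listed genes of T, NK and B cells 19 were tested and 15 rose (median 3.42). Igkc, the constant region of the kappa light chain, was at 1.57, 0.54 and 3.20 FPKM in sham and 186, 202 and 246 FPKM in PT (6.84 ± 0.81, edgeR adjusted p = 0.000688), and Jchain, which joins secreted antibodies, at 0.30, 0.20 and 0.58 FPKM and 8.28, 8.84 and 4.39 FPKM (4.25 ± 0.73). Trac, the constant region of the T cell receptor alpha chain, was at 0.05, 0.05 and 0.28 FPKM and 1.18, 1.90 and 1.32 FPKM (3.42 ± 0.58). Sham library 3 was the highest sham library for each of these 3 genes. The defining T cell chains Cd3e and Cd3g were below the level for testing, with 12 counts each in sham and 260 and 362 in PT. The neutrophil genes S100a8 (0.88 ± 0.44), S100a9 (0.93 ± 0.54) and Ngp (-0.16 ± 0.77) were not called, and of 23 genes listed for neutrophils and mast cells 6 were tested and 2 rose, Lcn2 and the growth factor receptor Csf3r (2.45 ± 0.28), both of which other cells also express.

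Some genes of cell division were higher in PT at day 28. Of 41 listed, 24 passed the filter, with 11 higher and 2 lower (median 0.47), or 1 lower when a library other than PT library 3 was left out. The licensing factors Mcm2 (0.82 ± 0.13), Mcm3 (1.35 ± 0.27) and Mcm6 (0.81 ± 0.14) and the cyclin Ccnd2 (0.74 ± 0.07) rose, as did the arrest factor Cdkn1a, from 5.13, 7.32 and 6.39 FPKM to 11.7, 11.7 and 11.8 FPKM (0.84 ± 0.14). E2f1, a driver of DNA replication, fell (-0.55 ± 0.12).

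Genes of the fibrotic scar rose. Of 26 tested genes of fibrillar collagens and their processing 20 rose and 1 fell (median 1.39). Col1a1 was at 1.32, 1.79 and 1.71 FPKM in sham and 48.3, 35.2 and 24.5 FPKM in PT (4.43 ± 0.45, edgeR adjusted p = 0.00047). Its partners Col1a2 (3.97 ± 0.42) and Col3a1 (5.24 ± 0.48), the collagen chaperone Serpinh1 (2.08 ± 0.15) and the cross-linking oxidases Lox (4.06 ± 0.38) and Loxl1 (3.35 ± 0.35) rose with it. The fibril-initiating collagens Col5a1 (0.10 ± 0.11) and Col11a1 (-0.06 ± 0.17) were not called. Network, beaded and membrane collagens rose in 16 of 22 tested cases and fell in 1 (median 0.75), with 0 falls without sham library 1, sham library 3, PT library 1 or PT library 2 and 2 without PT library 3. Risers were Col18a1 (2.71 ± 0.31), the source of endostatin, and Col4a5 (1.93 ± 0.29) and Col4a6 (2.21 ± 0.33) of basement membranes. Of 10 tested laminin chains 8 rose, and of all 18 tested basement membrane genes 15 rose (median 1.09), with Lamb2 (1.37 ± 0.17), the linker Nid1 (1.73 ± 0.28), perlecan, Hspg2 (1.70 ± 0.27), and Sparc (1.64 ± 0.23) as examples. Agrn, the agrin of basement membranes and synapses, was not called (0.07 ± 0.07).

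Small proteoglycans and glycoproteins that fill the scar rose in 25 of 29 tested cases (median 1.59). Spp1, the phagocyte and matrix protein osteopontin, was at 4.16, 3.51 and 4.16 FPKM in sham and 134, 142 and 84.7 FPKM in PT (4.87 ± 0.40, edgeR adjusted p = 0.000446). The collagen-binding proteoglycans Dcn (3.83 ± 0.36), Lum (4.29 ± 0.45) and Bgn (2.63 ± 0.36), the calcification inhibitor Mgp (3.11 ± 0.34) and Fbln1 (3.32 ± 0.29) rose with it. Sparcl1, the abundant synaptogenic glycoprotein of astrocytes, was not called, at 639, 624 and 650.4 FPKM and 669, 735 and 751 FPKM (0.12 ± 0.08). Proteases and inhibitors of matrix rose in 23 of 29 tested cases and fell in 2 (median 1.55), with 0 falls without sham library 1, sham library 3 or PT library 2 and 1 without sham library 2 or PT library 1. Mmp3, stromelysin-1, went from 0, 0.10 and 0.11 FPKM to 23.7, 37.4 and 29.6 FPKM, that is from 30 counts in the 3 sham libraries to 13138 in those of PT. Macrophage elastase, Mmp12, went from 12 counts to 5103. The inhibitors Timp1 (4.50 ± 0.46) and Serpina3n (4.34 ± 0.43), the activator Mmp14 (2.86 ± 0.27) and Plau (1.86 ± 0.29) rose as well.

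In contrast, chondroitin sulfate proteoglycans and perineuronal net genes showed no common direction, with 6 of 20 tested higher and 3 lower (median -0.01). Neurocan, Ncan, was not called (-0.25 ± 0.09, edgeR adjusted p = 0.0679, or 0.0239 without PT library 3). Brevican, Bcan, went from 41.9, 44.2 and 43.1 FPKM to 73.3, 60.4 and 50.5 FPKM (0.45 ± 0.12), and Hapln4, a link protein of nets, from 43.3, 42.5 and 42.1 FPKM to 20.3, 30.0 and 35.5 FPKM (-0.63 ± 0.17). Both had PT library 3 nearest to sham, and both lost their call without any 1 sham library, as Hapln4 did without PT library 2 (edgeR adjusted p = 0.0598 to 0.0685 for Bcan and 0.0544 to 0.0747 for Hapln4). Without sham library 1, 2 or 3 the list had 3, 2 and 3 genes higher and 1, 0 and 1 lower.

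Growth factor signals for scar formation rose in part. Of 38 genes of TGF-beta and BMP signalling 23 rose and 2 fell (median 0.59). Tgfb1 was at 1.01, 0.86 and 1.06 FPKM in sham and 6.48, 6.29 and 4.23 FPKM in PT (2.47 ± 0.27, edgeR adjusted p = 0.000536), and both of its receptors, Tgfbr1 (1.21 ± 0.20) and Tgfbr2 (1.61 ± 0.23), rose. The BMP target Id3 reached 57.8, 52.9 and 33.6 FPKM from 9.41, 10.2 and 10.1 FPKM (2.22 ± 0.19), while the BMP receptor Bmpr2 (-0.63 ± 0.09) fell. Of 16 IGF genes 9 rose and 1 fell (median 0.76), or 0 without sham library 2, with Igf1 (1.62 ± 0.28), Igf2 (1.12 ± 0.17) and the binding proteins Igfbp5 (2.36 ± 0.23) and Igfbp7 (1.51 ± 0.22) higher. The insulin receptor Insr was not called and was uneven in sham, at 5.08, 5.24 and 1.80 FPKM, against 1.45, 1.68 and 1.83 FPKM in PT. Without sham library 3 it was called lower (edgeR adjusted p = 0.0146).

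Reactive astrocyte genes rose, and the transporters of resting astrocytes did not fall. Of 15 filament and cytoskeleton genes 10 rose (median 0.81). Gfap, the astrocyte filament protein, was at 12.4, 12.7 and 20.3 FPKM in sham and 443, 357 and 187 FPKM in PT (4.39 ± 0.42, edgeR adjusted p = 0.000461), and Vim at 4.28, 3.87 and 3.04 FPKM and 42.0, 39.5 and 25.7 FPKM (3.20 ± 0.27). The lowest PT library exceeded the highest sham library several times over for both. Of 25 tested transporter, channel and junction genes 16 rose and 0 fell (median 0.38). The water channel Aqp4 (1.54 ± 0.22), the glutamate transporter Slc1a3 (0.74 ± 0.10), the gap junction protein Gja1 (1.44 ± 0.29) and glutamine synthetase, Glul (0.46 ± 0.08), were higher. S100 and annexin genes rose in 12 of 18 tested cases (median 1.03), with Anxa1 (3.29 ± 0.32), Anxa2 (2.59 ± 0.25), S100a4 (3.77 ± 0.44) and S100a6 (1.36 ± 0.17) at the larger end and the astrocyte marker S100b at 0.65 ± 0.14.

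Vascular genes rose in part. Of 23 tested genes of endothelial junctions and blood-brain barrier transport 11 rose (median 0.47), including Cdh5 (1.0003 ± 0.14), which joins endothelial cells, the efflux pump Abcb1a (0.74 ± 0.13) and the glucose transporter Slc2a1 (0.50 ± 0.10). The junction protein Tjp1 was not called (0.27 ± 0.09, edgeR adjusted p = 0.0523, or 0.048 without PT library 1). Of 34 angiogenic genes 16 rose (median 0.59), among them the ligands Angpt1 (2.09 ± 0.28) and Angpt2 (1.87 ± 0.28) and the coreceptor Nrp2 (1.33 ± 0.15). Of 18 pericyte and smooth muscle genes 11 rose (median 0.76), or 7 without sham library 2. Anpep, the pericyte and macrophage peptidase CD13, was at 1.14, 1.22 and 1.19 FPKM in sham and 10.6, 10.9 and 8.95 FPKM in PT (3.04 ± 0.29), and the smooth muscle actin Acta2 (1.40 ± 0.20) rose less. Rgs5, a pericyte marker, was not called (0.19 ± 0.13). Meningeal fibroblast genes, part of the tissue that borders a cortical infarct, rose in 18 of 21 cases (median 1.55). Slc47a1 was at 2.33, 2.33 and 2.38 FPKM and 12.1, 10.3 and 7.01 FPKM (2.001 ± 0.17), and Foxc1 (1.74 ± 0.18), Foxc2 (2.12 ± 0.21) and Slc6a13 (1.17 ± 0.15) rose with it. Whether more meninges was sampled with PT tissue was not tested.

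Oligodendrocyte genes rose in 2 of the PT libraries more than in the other. Of 25 genes of progenitors and the lineage 17 rose and 2 fell (median 0.71), with Sox8 (0.82 ± 0.09), Pdgfra (0.69 ± 0.12) and Myrf (0.96 ± 0.21) as examples. Of 29 tested myelin genes 17 rose (median 0.71). Cldn11, the tight junction protein of myelin, was at 44.0, 44.7 and 59.9 FPKM in sham and 149, 153 and 75.5 FPKM in PT (1.29 ± 0.24, edgeR adjusted p = 0.00497). Mbp, the myelin basic protein, was at 44.0, 42.8 and 62.1 FPKM and 127, 102 and 66.0 FPKM (0.93 ± 0.24), and its call was lost without sham library 1, sham library 2 or PT library 1 (edgeR adjusted p = 0.0583 to 0.0698). For both genes sham library 3 was the highest sham library and PT library 3 the lowest PT library, and for Mbp these differed little. The mean log2 level of the myelin list exceeded that of sham by 1.14 and 1.04 in the first 2 PT libraries and by 0.32 in PT library 3. The count of risers was 7 and 6 without sham libraries 1 and 2, and 7 and 8 without PT libraries 1 and 2. For the progenitor list it was 10 and 9 without sham libraries 1 and 2, and the 2 falls were 1 without sham library 2.

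Neurons showed a broad, shallow fall at the synapse. Of 35 genes of presynaptic vesicle release 26 fell and none rose (median -0.44). The calcium sensor Syt1 was at 216, 205 and 187 FPKM in sham and 97.3, 136 and 146 FPKM in PT (-0.74 ± 0.16, edgeR adjusted p = 0.00818). The active zone proteins Rims1 (-0.53 ± 0.11) and Pclo (-0.87 ± 0.21), the vesicle protein Sv2b (-0.79 ± 0.17), the adhesion molecule Nrxn3 (-0.69 ± 0.15) and Syn1 (-0.52 ± 0.12) fell beside it. On the mean of the list PT library 1 was the lowest, at -0.69 on the log2 scale, with PT libraries 2 and 3 at -0.48 and -0.32. Of 44 genes of ionotropic glutamate receptors and the postsynaptic scaffold 18 fell and 1 rose (median -0.33). Gria2, the AMPA receptor subunit that blocks calcium entry, was at 35.9, 32.6 and 32.2 FPKM and 16.2, 20.5 and 25.3 FPKM (-0.75 ± 0.15, edgeR adjusted p = 0.00626). Of the 4 AMPA subunits 3 fell, as did 4 of 6 NMDA subunits, Grin2a (-0.74 ± 0.15) among them. The riser was Homer3 (1.33 ± 0.26). GABA and glycine receptor genes fell in 14 of 19 tested cases with no riser (median -0.51), 8 of the 12 GABA-A subunits among them. Gabra3, a subunit of the GABA-A receptor, was at 36.3, 32.7 and 30.4 FPKM and 15.8, 22.2 and 22.4 FPKM (-0.77 ± 0.16), and both metabotropic receptors, Gabbr1 (-0.37 ± 0.08) and Gabbr2 (-0.67 ± 0.15), fell. The presynaptic count was 13, 13 and 14 without sham library 1, 2 or 3 and 16 without PT library 1 or 2. The glutamate count was 9 and 11 without sham libraries 1 and 2, and the GABA count was 9 without sham library 1.

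Ion channels of neurons fell in part. Of 62 potassium channel genes 25 fell and 6 rose (median -0.40). Kcnh7 was at 10.8, 8.45 and 9.43 FPKM in sham and 3.62, 5 and 5.46 FPKM in PT (-1.08 ± 0.16, edgeR adjusted p = 0.00158), and Kcnv1 (-1.04 ± 0.19) and Kcnq3 (-0.65 ± 0.12), which carries the M current, fell too. Risers included Kcnk6 (1.31 ± 0.18) and Kcne4 (1.89 ± 0.37). Of 23 sodium and calcium channel genes 6 fell (median -0.28), with Cacnb4 (-0.92 ± 0.14) and Scn3a (-0.59 ± 0.09) as the clearest. Of 13 protocadherins 3 fell, Pcdh7 among them, and 1 rose, Pcdhgc3 (0.91 ± 0.13). Without sham library 1, 2 or 3 the potassium channel falls numbered 11, 13 and 16, and without PT library 2 they numbered 14; the 6 rises were 3 without sham library 2 or PT library 1. The sodium and calcium falls were 3 without sham library 2 or PT library 2 and 10 without PT library 3, and the protocadherin falls were 1 without sham library 1 and 5 without PT library 3.

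Genes of single neuron classes mostly did not pass. Of 28 interneuron genes 8 fell and 1 rose (median -0.28). Gad1, which makes GABA, was at 46.3, 48.4 and 47.5 FPKM in sham and 30.1, 33.3 and 38.9 FPKM in PT (-0.53 ± 0.10, edgeR adjusted p = 0.00457). The neuropeptide gene Sst, at 183, 166 and 175 FPKM and 135, 125 and 134 FPKM, and the calcium buffer Pvalb, at 65.1, 64.2 and 68.8 FPKM and 44.2, 54.5 and 56.2 FPKM, had non-overlapping libraries and small falls (-0.47 ± 0.13 and -0.41 ± 0.12). The calls of Sst and Pvalb were lost with sham library 1, 2 or 3, or PT library 1 or 2, left out (edgeR adjusted p = 0.0508 to 0.0908 for Sst and 0.0519 to 0.0797 for Pvalb). Vip was not called (-0.53 ± 0.22), although it was without PT library 3 (edgeR adjusted p = 0.0305). Of 28 genes of cortical layers 5 fell and 2 rose (median -0.37). Foxp1 went from 2.11, 6.88 and 5.76 FPKM to 1.99, 1.72 and 1.75 FPKM (-1.48 ± 0.34), with sham library 1 close to the PT libraries. The interneuron rise was lost without any 1 library other than PT library 3, without which there were 2. The interneuron falls were 3, 3 and 4 without sham library 1, 2 or 3 and 3 without PT library 2. The layer falls were 1, 1 and 2 without these sham libraries, and 2, 3 and 9 without PT library 1, 2 or 3, and the 2 rises were 1 without sham library 2, sham library 3, PT library 2 or PT library 3.

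**Figure D3:**
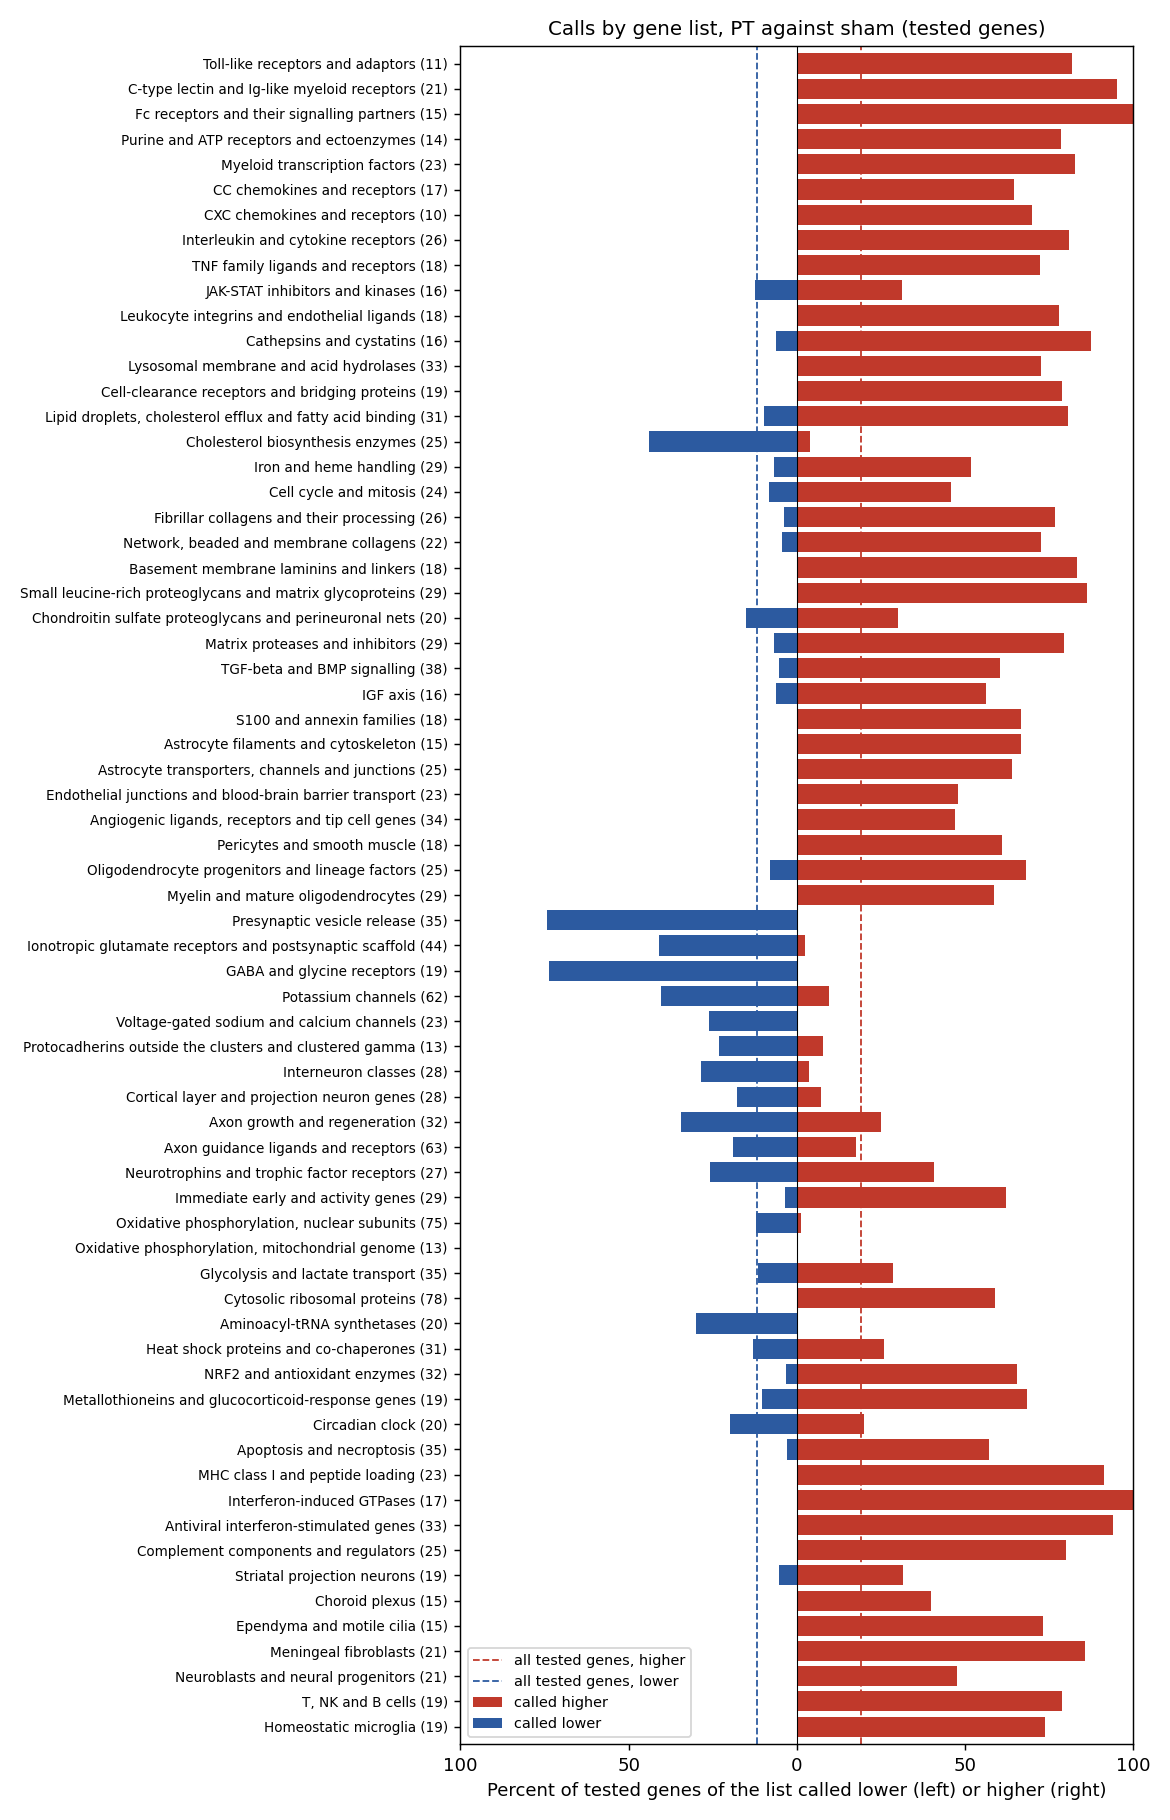
Bars give the percent of tested genes of each list with 10 or more tested genes that were called higher (red, right) or lower (blue, left) in PT, with the number tested in brackets, and dashed lines give the same shares of all 16740 tested genes (19.1% and 11.8%). Immune, lysosomal and matrix lists reach far beyond the line on the right, and lists of synapses, channels and cholesterol synthesis beyond the line on the left.

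Genes of axon growth were divided. Of 32 tested 8 rose and 11 fell (median -0.31). Atf3, a factor switched on in injured neurons and also in macrophages, was at 0.12, 0.27 and 0.21 FPKM in sham and 4.24, 6.68 and 3.64 FPKM in PT (4.53 ± 0.57, edgeR adjusted p = 0.000822). Jun (1.24 ± 0.15) and Marcksl1 (0.57 ± 0.12) rose too, whereas the growth cone proteins Basp1 (-0.59 ± 0.13) and Stmn2 (-0.65 ± 0.14) and the adhesion molecule L1cam (-0.58 ± 0.13) fell. Of 63 tested guidance genes 11 rose and 12 fell (median -0.09). These are 17.5% and 19%, beside 19.1% and 11.8% of all tested genes. The B-class plexins Plxnb1 (0.72 ± 0.11) and Plxnb2 (1.19 ± 0.16) rose, and the ligands Sema3e and Efna5 (-0.998 ± 0.16) and the receptor Robo2 (-0.57 ± 0.09) fell. Of 27 tested genes of trophic factors and receptors 11 rose and 7 fell (median 0.30). The 3 tested ligands of the Cntf family rose, Cntf (2.41 ± 0.36) and Clcf1 (2.06 ± 0.32) among them, with the receptors Fgfr1 (1.25 ± 0.15) and Osmr, while the neurotrophin receptor Ntrk3 (-0.51 ± 0.11) and Gfra2 (-0.77 ± 0.14) fell. Axon growth falls were 5 without sham library 1 and 7 without PT library 1, and its rises 4 without sham library 2. Guidance rises were 6 without sham library 1 or 2, and falls 7 without sham library 2, sham library 3 or PT library 1. Trophic rises were 7 without sham library 1 or 2, and falls 4 without sham library 1, PT library 1 or PT library 2.

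Immediate early genes, which stimuli switch on within minutes, rose in 18 of 29 tested cases and fell in 1 (median 0.89), or 0 without sham library 1, sham library 2 or PT library 1. Fos was at 3.80, 4.99 and 5.83 FPKM in sham and 14.7, 13.4 and 19.9 FPKM in PT (1.66 ± 0.19, edgeR adjusted p = 0.000628). Its groups did not overlap, and PT library 3 was the highest. Junb (1.12 ± 0.16), Egr2 (2.31 ± 0.31), Klf2 (1.496 ± 0.23) and Ccn1 (2.50 ± 0.43) rose as well. Other genes of the list, such as Nptx2 (-0.19 ± 0.15), Egr4 (0.26 ± 0.20) and Fosb (0.29 ± 0.23), were not called.

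Energy genes mostly did not pass. Of 75 nuclear genes of oxidative phosphorylation 9 fell and 1 rose (median -0.12, with no rise without sham library 2 or PT library 1), a share of falls close to the 11.8% of all tested genes. Ndufs1, a complex I subunit, was at 14.8, 14.6 and 13.96 FPKM and 9.78, 12.1 and 12.5 FPKM (-0.39 ± 0.10), a call lost without sham library 1 or 2 (edgeR adjusted p = 0.0527 to 0.0631). The falls numbered 0, 1 and 3 without sham library 1, 2 or 3 and 2 without PT library 1. None of the 13 mitochondrial genes was called (median -0.19), with mt-Nd3 (-0.43 ± 0.16, edgeR adjusted p = 0.0796) of smallest p. Of 35 tested table entries for 34 genes of glycolysis and lactate transport (Aldoa has 2 entries) 10 rose and 4 fell (median -0.06). The hexokinase Hk2 was at 0.68, 0.63 and 0.55 FPKM and 2.73, 2.59 and 1.91 FPKM (1.90 ± 0.21), the myeloid Hk3 (3.62 ± 0.46) and the lactate carrier Slc16a1 (1.05 ± 0.15) rose, and the neuronal glucose transporter Slc2a3 (-0.42 ± 0.10) fell, a call lost without sham library 2 (edgeR adjusted p = 0.0505). The glycolysis falls were 1, 0 and 1 without sham library 1, 2 or 3, 1 without PT library 1 and 7 without PT library 3.

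Ribosomal protein genes rose in part. Of 78 tested 46 rose, 32 did not pass and none fell, by small amounts (median 0.37). Rplp0 was at 69.5, 66.6 and 74.5 FPKM in sham and 152, 134 and 115 FPKM in PT (0.87 ± 0.12, edgeR adjusted p = 0.00112), and Rps9 (0.82 ± 0.13) and Rpl18 (0.67 ± 0.09) rose. The count was 30 without sham library 2. Many ribosomal protein genes have near-identical pseudogenes, so single values are uncertain. Aminoacyl-tRNA synthetases, which charge tRNAs, had 6 falls of 20 and no rise (median -0.25), with Gars (-0.43 ± 0.10) the clearest, and 1, 2 and 2 falls without sham library 1, 2 or 3 and 2 without PT library 1.

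Genes of oxidative stress mostly rose, and heat shock genes changed in shares not far from those of all tested genes. Of 32 tested antioxidant and oxidase genes 21 rose and 1 fell (median 0.70). All 5 subunits of the phagocyte NADPH oxidase rose, with Cyba at 2.68, 2.51 and 3.08 FPKM in sham and 54.5, 46.7 and 38.6 FPKM in PT (4.02 ± 0.36, edgeR adjusted p = 0.000446) and Cybb, its catalytic chain, at 0.06, 0.08 and 0.17 FPKM and 7.14, 4.89 and 5.39 FPKM (5.68 ± 0.65). The antioxidant regulator Nfe2l2 (1.86 ± 0.22) and the peroxide-removing Gpx1 (0.94 ± 0.15), Gpx3 (4.42 ± 0.47) and Prdx6 (1.18 ± 0.14) rose too. Metallothioneins, which bind zinc and copper, rose: Mt2 was at 88.8, 75.5 and 81.1 FPKM and 313, 258 and 186 FPKM (1.57 ± 0.22), with Mt1 (1.23 ± 0.16) and Mt3 (0.69 ± 0.12). In that list, shared with glucocorticoid targets, 13 of 19 rose and 2 fell (median 0.69), with 0 falls without sham library 1, sham library 2 or PT library 1 and 1 without sham library 3 or PT library 2. The glucocorticoid targets Tsc22d3 (0.29 ± 0.16) and Fkbp5 (0.31 ± 0.19) were not called. Among heat shock genes, 8 of 31 tested were higher and 4 lower (median -0.04). These are 25.8% and 12.9%, beside 19.1% and 11.8% of all tested genes. The small chaperones Hspb1 (2.08 ± 0.28) and Hspb8 (2.23 ± 0.21) and their partner Bag3 (1.66 ± 0.19) rose, and Hspa4l (-0.66 ± 0.15) and Hspa12a (-0.58 ± 0.13) fell. The 4 falls were 2 without any 1 sham library. Genes of cell death rose in 20 of 35 tested cases and fell in 1 (median 0.80), or 0 without sham library 1, sham library 3 or PT library 1. Gsdmd, the pore of pyroptosis, was at 0.85, 0.75 and 0.81 FPKM and 4.40, 3.90 and 3.02 FPKM (2.16 ± 0.21), and Casp8 (2.36 ± 0.29) and Ripk1 (1.32 ± 0.20) rose. Of 20 clock genes 4 rose and 4 fell (median -0.10), which is 20% each way, the rises being close to the 19.1% of all tested genes. Nfil3 (1.11 ± 0.15) and Per1 (0.75 ± 0.14) were higher and Nr1d2 (-0.61 ± 0.12) and Clock (-0.81 ± 0.17) lower. The clock falls were 2 without any 1 sham library or PT library 2.

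Genes of structures beside the cortex were uneven over the PT libraries. Of 23 striatal genes 19 were tested and 6 rose and 1 fell (median 1.43), and PT libraries 1, 2 and 3 lay at a mean log2 level of 2.71, 0.92 and -0.10 relative to sham. Ppp1r1b, the striatal phosphatase inhibitor DARPP-32, was at 30.3, 34.9 and 40.2 FPKM in sham and 249.99, 65.2 and 38.8 FPKM in PT and was not called (edgeR adjusted p = 0.0519, or 0.0103 to 0.0453 without PT library 2 or 3). The rises were 0 without any 1 sham library, 2 without PT library 1 and 14 without PT library 3. Of 22 choroid plexus genes 15 were tested and 6 rose (median 2.47), with list levels of 3.66, 1.30 and 1.69. Aqp1, the water channel of the plexus, was at 0.08, 0.08 and 0.14 FPKM and 4.48, 2.18 and 2.75 FPKM (4.88 ± 0.74). The choroid rises were 3, 2 and 2 without sham library 1, 2 or 3, 2 without PT library 1 and 10 without PT library 2. Of 30 genes of ependyma and motile cilia 15 were tested and 11 rose (median 1.88), with list levels of 2.71, 1.83 and 1.38 in PT and -0.58, -0.17 and 0.76 in sham. Foxj1, the master factor of motile cilia, was at 1.05, 1.42 and 1.91 FPKM and 13.5, 9.30 and 4.8 FPKM (2.60 ± 0.38, edgeR adjusted p = 0.00161). The ependymal rises were 3, 4 and 5 without sham library 1, sham library 2 and PT library 1. Genes of neuroblasts and progenitors rose in 10 of 21 tested cases (median 0.47). Thbs4, made by astrocytes of the ventricle wall, was at 0.70, 1.53 and 3.55 FPKM in sham and 29.7, 23.2 and 10.3 FPKM in PT (3.40 ± 0.62), and Sox2 (0.52 ± 0.12) rose by less. PT libraries 1 and 2 were the highest for Thbs4, as for the myelin and ependymal lists. How much of each rise came with these neighbouring structures was not tested.

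**Figure D4:**
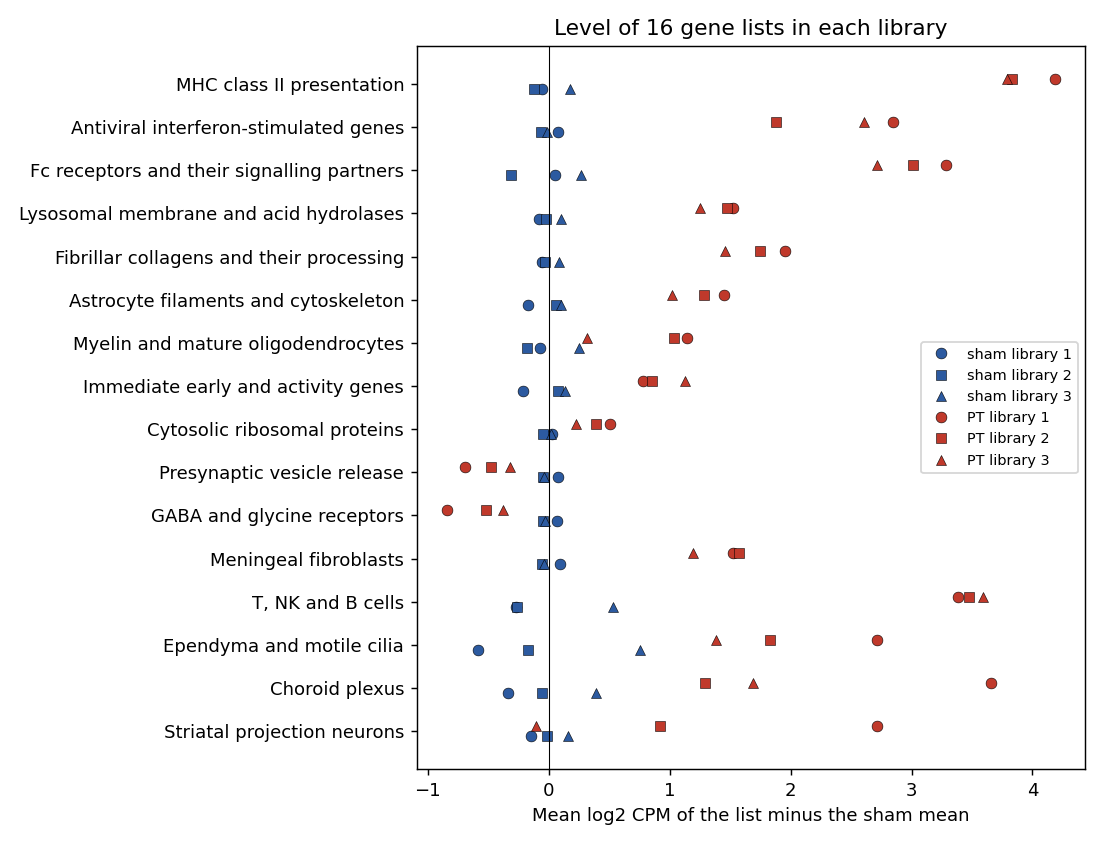
Points give the mean log2 CPM (counts scaled by library total) of 16 lists in each library relative to the mean of the sham libraries, sham in blue and PT in red, with symbols for libraries 1, 2 and 3. All 3 PT libraries lie far above sham for the immune and matrix lists, while the striatal list runs from 2.71 to -0.10 and the choroid plexus list from 3.66 to 1.30 among the PT libraries.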

How the data were processed

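RNA of the 9 libraries was sequenced by the authors. The deposited table gives raw read counts and FPKM per gene for each library, per the file headers. Reads were aligned with Bowtie 0.12.2 and the build mm8 is named, per the submitters' processing notes. The gene positions in the deposited table equal those of GRCm38 (GENCODE M21) for 51957 of 55141 shared identifiers (94.2%), so GRCm38 is the build used here. The sources used here do not name the counting tool or its treatment of strand, so reads of overlapping and antisense genes cannot be told apart. No value column was left out (0).

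Columns were matched to libraries by their titles. Genes whose FPKM averaged 0.5 or more across the 9 libraries were tested on the deposited counts with edgeR 4.0.16 (TMM factors, quasi-likelihood test of PT minus sham in a fit of 3 groups, adjusted over all tested genes, threshold 0.05). Standard errors were derived from the edgeR test and not read from the fitted coefficients. Each is the absolute log2 fold change over the root of the gene's F statistic. The procedure was tested on simulated data, with 50 genes changed by each size. It called 94% of genes set 4-fold higher, 48% of those 2-fold higher and 8% of those 1.5-fold higher. Of genes set 2-fold lower it called 54%, and of 16540 unchanged genes it called 5. A gene that was not called may therefore still have changed. Far fewer genes were changed in the simulation than were called in the data, which makes the adjusted p stricter there. The simulated shares are thus not the sensitivity of the comparison of PT with sham.

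The 71 gene lists hold 1979 genes, of which 1674 were tested. Lists and comparison were chosen with earlier results of these data known, and lists are described by counts and medians only. Named genes are protein-coding genes with non-overlapping libraries that had the 8 largest gains or losses of FPKM, the 6 smallest p-values in each direction with at least 1 FPKM, or the 6 largest falls, and up to 4 called members of each list per direction, with other members added to describe a family. List levels are mean log2 CPM with a prior count of 2. Alternatives were other filters, scalings, DESeq2 1.42.0, limma 3.58.1 on log2 FPKM, a 2-fold threshold, the 6 libraries alone, a replicate block and each library left out. Python 3.11.15 and R 4.3.3 were used. Some members of the named sets are not reported here.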

Additional observations from a re-analysis of the deposited data

How the results depend on the processing

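Against the 5176 genes called, other filters, scalings, DESeq2 and limma gave between 4764 and 6257 calls. A test against a 2-fold threshold gave 789 calls, 787 higher and 2 lower. Leaving out 1 library gave between 3198 and 5799 calls, of which 2365 to 3358 were higher and 782 to 2441 lower. The causes of these changes were not tested, except that a fit with a library left out has fewer samples and the threshold test asks for a larger change. Of 289 called genes named here 271 kept their call under all alternatives but the 2-fold threshold, and 149 kept it under all alternatives. An alternative in which a gene was not tested or had no adjusted p was left out of the count for that gene. The named genes were chosen in part for small p-values. None of 322 named genes changed direction with a call. Of all 5176 genes called 3139 were also called without sham library 1.

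No sign of pairing by replicate number was seen. The correlation of deviations from the group means was -0.0661, -0.0406 and -0.22 for the same-numbered sham and PT libraries. For libraries of different numbers it ran from -0.0913 to 0.152. With 3 libraries per group these values depend on one another and cannot decide whether the libraries were paired. With the replicate block 4266 genes were called, 2814 higher and 1452 lower, of which 4181 were also called without it.

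Several list counts moved with the test. Without scaling beyond library size, oxidative phosphorylation had 2 falls, tRNA synthetases 2, glycolysis 2 and cortical layers 2, while DESeq2 gave 15, 9 and 9 for oxidative phosphorylation, glycolysis and layers. Striatal rises were 1 with the replicate block, and choroid plexus rises 13 with DESeq2. Myelin rises were 11 with the 6 libraries alone.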

Other observations

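Some abundant genes jumped between libraries of a single group, a pattern chosen after the values were seen. Of 9565 genes with a mean of at least 1000 counts, 256 (2.68%) differed at least 2-fold among the sham libraries and 396 (4.14%) among the PT libraries. Of the 90 genes called lower by at least 2-fold 53 were protein-coding, and 37 of the 90 had such a difference within sham or within PT. Among the 37 of the 90 with at least 1000 counts it was 10. The potassium channel gene Kcna2 was at 31.5, 30.4 and 30.8 FPKM in sham and 2.23, 3.69 and 27.0 FPKM in PT, so that PT library 3 lay near the sham libraries and the others far below. It was not called, but was lower without PT library 3 (edgeR adjusted p = 0.00556). The neuregulin receptor Erbb4 was at 5.94, 5.13 and 5.27 FPKM in sham and 2.42, 0.16 and 0.26 FPKM in PT, lower in PT library 1 and lowest in the other PT libraries, not called with all libraries but called without PT library 1 (edgeR adjusted p = 0.0296). Napb, Foxp1 and Insr, described above, varied in sham in the same way.

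Genes that sham libraries did not show at all were 80 of the tested genes, and 59 of these were called higher. Tested genes with no PT count numbered 3. The 80 genes passed the filter through PT or Pushen libraries alone, so a rise was the only direction that they could show. Among the listed ones, Clec4d, a lectin of inflammatory macrophages, was at least 85.9-fold higher in PT, the interferon-induced GTPase Gbp10, one of several close copies, at least 108-fold, the lipoprotein lipase activator Apoc2 at least 64.8-fold and the monocyte attractant Ccl7 at least 29.6-fold, each with sham libraries set to a floor of 3 counts. Markers of mast cells had few counts: the chymase Cma1 had 0 in sham and 43 in PT, the carboxypeptidase Cpa3 had 0 and 24, and the tryptase Tpsb2 had 4 and 45. Mzb1, a marker of plasma cells, had 11 counts in sham and 180 in PT.

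Other motifs were searched in the same promoter windows. The PU.1-type motif GAGGAAGT, searched on both strands as were the others, was found in 2.84% of windows of tested genes, 7.39% of those raised at least 4-fold and 2.42% of those called lower, and the AP-1 motif TGANTCA in 5.13%, 11.9% and 4.58%. The cAMP response element TGACGTCA showed the opposite order, with 2.87%, 1.01% and 2.90%. The GC content of these windows, given above for the ISRE, differs between the groups as well, and its part in these shares was not tested.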
